A study of Mus musculus with 6 samples.

Results

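The E proteins and their ID inhibitors were followed at the transcript level in B cells responding to a TLR7 agonist. The 6 genes, Tcf3, Tcf4 and Tcf12 for the E proteins and Id1, Id2 and Id3 for the inhibitors, were taken by their symbols from the 23420 gene symbols in the deposited tables. All 6 were among the 11844 genes with a level of 0.5 CPM (the reads of a gene scaled to a fixed library total) or more in 3 or more libraries, the set on which the test was run. The cells were splenic B cells of MRL/lpr mice (MRL.Faslpr), a lupus-prone strain that carries a Fas mutation. All mice, those that gave the controls included, lacked TLR9 (TLR9-/-) and are labelled as wild type for TLR7. The labels give 3 mice of 5 to 7 weeks of age, whose bead-purified B cells were kept for 4 h with no stimulus or with CL097, an imidazoquinoline ligand of TLR7, at 5 µg/ml. The study's methods describe male mice and a negative selection, in which beads removed cells that carry CD43, CD4, CD8, CD11b, CD11c or Gr-1. Each condition had 3 libraries, numbered 1 to 3. The comparison asks which transcripts change when TLR7 is engaged in B cells that have no TLR9.

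E proteins are basic helix-loop-helix transcription factors. They pair with each other through the helix-loop-helix and bind DNA through the basic region, at a short motif called the E-box (CANNTG, where N is any base). ID proteins have the helix-loop-helix but no basic region, so a pair of an E protein with an ID protein cannot bind DNA. In B cells this balance is known for its part in commitment to the lineage, in the arrangement and diversification of immunoglobulin genes and in the step from a resting to an antibody-secreting cell. Tcf3 encodes E2A, of which the isoforms E12 and E47 are splice products, Tcf4 encodes E2-2 and Tcf12 encodes HEB. Id3 is the inhibitor known for holding E2A in check in resting lymphocytes, and Id2 is best known for its role in innate lymphoid and dendritic cells.

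Upon CL097 stimulation the members moved in different directions. Id3 fell most, to 7.85-fold lower, while Id2 rose 2.32-fold and Id1 rose 3.41-fold from a very low level. Of the E proteins, Tcf4 was 2.16-fold lower and Tcf3 was 1.74-fold lower, whereas Tcf12 had a log2 fold change of 0.02 (SE 0.06) and was not called. A gene was called in limma where its log2 fold change was beyond 0.5 in either direction with an adjusted p below 0.05. By this rule 3 of the 6 members were lower, 2 were higher and 1 was not called, with or without the replicate number as a block. Over all genes tested 23.6% were called lower, 24.0% higher and 47.6% in either direction (51.7% with the block), so a call as such was common in these libraries. In 5 of the 6 members the 3 CL097 libraries did not overlap the 3 unstimulated ones, against 65.8% of all genes tested. They lay higher for 2 members, against 33.4% of all genes, and lower for 3, against 32.4%. The same 5 members moved in 1 direction in all 3 numbers, as did 79.7% of all genes tested.

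**Figure D1:**
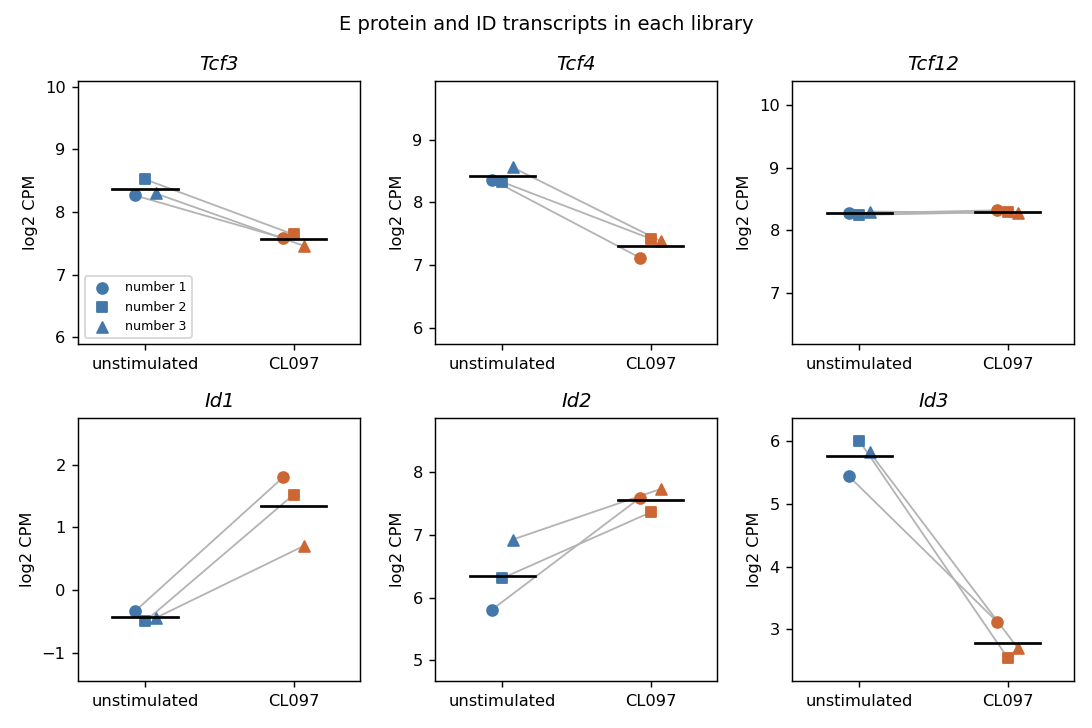
Deposited log2 CPM of the 6 genes in the 3 unstimulated (blue) and 3 CL097 (orange) libraries, with a marker shape for each number, a gray line joining the libraries of 1 number and a black bar at each group mean; every panel spans the same number of log2 units. All CL097 libraries lie below all unstimulated ones for Tcf3, Tcf4 and Id3 and above them for Id1 and Id2, and the groups overlap for Tcf12.

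Facts of the series bear on these values as follows. Each library had 10906 to 10997 genes at or above 1 CPM, and the values are quantile-normalized, so changes are relative to the remaining genes, and the amount of RNA per cell was not measured. Fewer cells of a type and less RNA per cell cannot be told apart in such samples. Tlr9 transcripts were read in all 6 libraries, at 112 to 155 CPM, which checks neither genotype nor label, since reads from exons outside a deletion would count as well. Libraries of number 1 stand apart, with 6 erythroid markers that summed to 33.9 CPM unstimulated and 51.2 CPM with CL097, against 832 to 2136 CPM in numbers 2 and 3. Without number 1 in both conditions the log2 fold changes were -0.86 for Tcf3, -1.04 for Tcf4, 0.01 for Tcf12, 1.59 for Id1, 0.93 for Id2 and -3.30 for Id3, with the same calls as with it (adjusted p in limma from 1.75e-06 to 0.0117 for the 5 called). B cell markers were present in all libraries. The sum of 7 of them was 6098 to 7003 CPM in unstimulated and 2598 to 3201 CPM in CL097 libraries, with 5 of 7 called lower, among them Cd22, Cd79a and Cd79b.

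Among the E proteins, Tcf3 (chromosome 10, 80409514 to 80433647, minus strand, 42 distinct annotated exons) was read at 307, 367 and 314 CPM in unstimulated libraries 1 to 3. After CL097 it was at 191, 199 and 176 CPM. All 3 CL097 libraries were below the lowest unstimulated one. The log2 fold change was -0.80 (SE 0.09, 95% interval -1.01 to -0.59, adjusted p = 0.000133), and the differences within the numbers were -0.68, -0.88 and -0.84. Because the tables hold 1 value per gene, E12 and E47 cannot be separated.

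Tcf4 (chromosome 18, 69343356 to 69689079, plus strand), which is required for plasmacytoid dendritic cells and is also used by B cells, fell as well. It was read at 329, 321 and 377 CPM without a stimulus. It was read at 139, 171 and 167 CPM after CL097. Again the groups were apart, here by 0.91 on the log2 scale between the nearest libraries. The log2 fold change was -1.11 (SE 0.10, 95% interval -1.35 to -0.87, adjusted p = 4.62e-05). Markers of plasmacytoid dendritic cells, 8 in all, summed to 108 to 133 CPM without a stimulus and 94.8 to 105 CPM with CL097. Most of the sum was Bst2, at means of 55.3 and 56.4 CPM, and Pacsin1, at means of 56.1 and 31.8 CPM. Of the 7 tested in limma, Pacsin1 was called lower and 0 were called higher, and 0 were higher at an unadjusted p below 0.05 or with the replicate number as a block. Siglech, the defining marker of those cells, was at a mean of 1.05 CPM before and 0.936 CPM after, and Klk1 and Cox6a2 stayed under 1 CPM in all libraries.

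Tcf12 (chromosome 9, 71842688 to 72111871, minus strand) was the steadiest member. Its values were 308, 303 and 315 CPM without a stimulus. With CL097 they were 319, 313 and 309 CPM. The ranges overlapped, 2 of 3 numbers were slightly higher and 1 slightly lower, and the 95% interval of the log2 fold change ran from -0.12 to 0.16 (adjusted p = 0.756). The interval lies inside the limit of 0.5 that a call required. The replicate SD of Tcf12 was 0.03 log2 units without a stimulus and 0.02 with CL097, and 2.26% and 2.30% of all genes tested had a smaller one, respectively. Ratios within each library set the E proteins side by side, on values that still carry the quantile normalization. The log2 ratio of Tcf3 to Tcf12 went from 0.09 ± 0.16 to -0.74 ± 0.08 (SD, n = 3), and that of Tcf4 to Tcf12 from 0.15 ± 0.10 to -0.99 ± 0.19. Neither ratio overlapped between the conditions, with an exact two-sided permutation p of 0.1 for each, the smallest that 3 against 3 libraries allow (adjusted p = 0.167 over 5 ratios). The ratio of Tcf4 to Tcf3 changed by -0.31, its ranges overlapped, and the exact permutation p was 0.2 (adjusted p = 0.25). Within the numbers it changed by -0.57, -0.03 and -0.34, all in 1 direction. The permutation test took the libraries as unpaired and allowed no p below 0.1. It therefore cannot decide whether Tcf4 fell more than Tcf3.

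**Figure D2:**
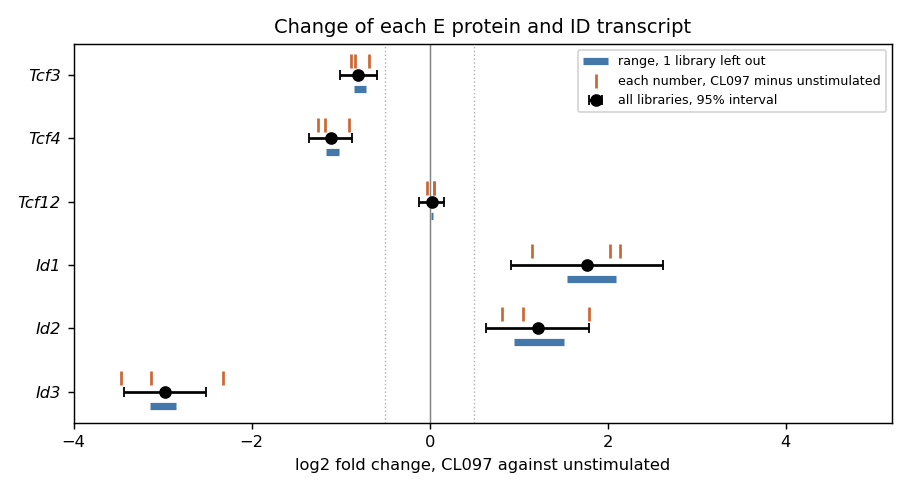
Log2 fold change of each gene, CL097 against unstimulated, with its 95% interval (black), the 3 differences within a number (orange ticks above) and the range when 1 library at a time is left out (blue bars below); dotted lines mark the limit of 0.5 for a call. The intervals of Tcf3, Tcf4 and Id3 lie below -0.5, those of Id1 and Id2 above 0.5, and that of Tcf12 spans 0.

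Of the inhibitors, Id3 (chromosome 4, 136143497 to 136145755, plus strand) had the largest change of the 6 members. Without a stimulus it was at 43.5, 64.4 and 56.8 CPM. With CL097 it was at 8.69, 5.84 and 6.48 CPM. Every CL097 library was at least 2.32 log2 units below the lowest unstimulated library. The log2 fold change was -2.97 (SE 0.20, 95% interval -3.44 to -2.51, adjusted p = 8.31e-06), and 1.51% of the genes tested had a larger absolute change. Within the numbers Id3 was 5.01-fold, 11.04-fold and 8.77-fold lower, with the smallest fall in number 1. Number 1 had the lowest unstimulated and the highest CL097 value of Id3, at -0.48 and 0.50 log2 units against the mean of numbers 2 and 3. Without number 1 in both conditions the log2 fold change was -3.30 (adjusted p = 1.75e-06).

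Id2 (chromosome 12, 25093799 to 25097140, minus strand) moved the other way. Its values were 55.9, 79.3 and 122 CPM in unstimulated libraries 1 to 3. In CL097 libraries they were 193, 164 and 213 CPM. The groups did not overlap, although the unstimulated libraries differed by 1.12 log2 units among themselves, and 91.2% of genes tested had a smaller SD there. The log2 fold change was 1.22 (SE 0.25, 95% interval 0.64 to 1.80, adjusted p = 0.00351). Within the numbers the rise was 3.46-fold, 2.07-fold and 1.75-fold. Leaving out unstimulated library 1 gave 0.95 and leaving out unstimulated library 3 gave 1.51, and the gene was called in both fits.

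Id2 is abundant in innate lymphoid, dendritic and myeloid cells, so markers of these cells are given beside it. Of the monocyte and macrophage markers 6 of 7 had a row. Their sum was 129, 332 and 534 CPM in unstimulated libraries 1 to 3, the same order as Id2. This order was not particular to them. The erythroid, T cell, neutrophil, plasma cell, NK and innate lymphoid, and plasmacytoid and conventional dendritic cell sums had it there as well. The B cell and endothelial sums did not. In CL097 libraries the monocyte and macrophage sum was 88.1, 181 and 305 CPM. Id2 was above all its unstimulated values in each of these libraries. In limma 0 of the 6 were called (1, Lyz2, was lower at an unadjusted p below 0.05), and with the replicate number as a block 3 were called lower and 0 higher. The beads were set against cells with CD11b or CD11c, which myeloid and dendritic cells carry. By the purity that the study's methods give, a minor part of the purified cells were not B cells. NK and innate lymphoid markers summed to 2.09 to 3.54 CPM and 1.54 to 5.28 CPM, with Ncr1, Gzma, Klre1 and Gata3 under 1 CPM in all libraries. Conventional dendritic cell markers summed to 71.9 to 104 CPM and 90.1 to 103 CPM, with Xcr1, Clec9a and Clec10a under 1 CPM in all libraries. In that list Zbtb46 rose by log2 2.54 (SE 0.19) and Sirpa fell by 1.49 (SE 0.51) on the log2 scale, and Itgax was called lower with the block alone (adjusted p = 0.0182). Of the T cell list, Cd3d, Cd3e, Cd3g and Thy1 were under 1 CPM throughout, and Cd8a was called higher at a mean of 1.74 CPM. The part of such cells in the level of Id2 was not tested.

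**Figure D3:**
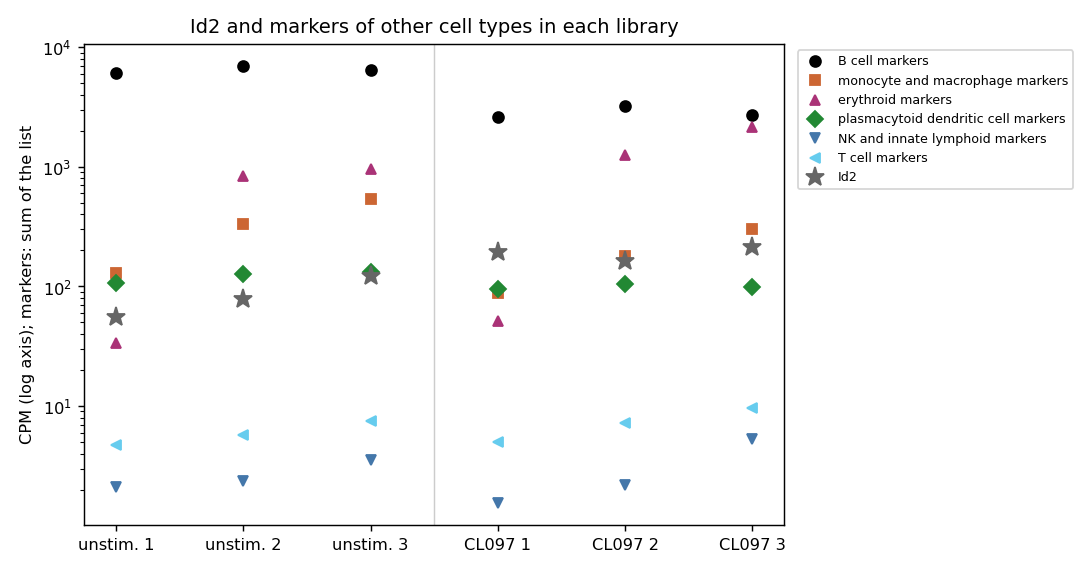
CPM of Id2 (gray stars) and the summed CPM of marker lists for B cells and 5 other cell types in each of the 6 libraries, on a log axis. Monocyte and macrophage, erythroid, T cell, and NK and innate lymphoid markers are lowest in number 1 and highest in number 3 in both conditions. Id2 and plasmacytoid dendritic cell markers have that order in the unstimulated libraries only. Id2 is at 164 CPM or more in all CL097 libraries.

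Id1 (chromosome 2, 152736251 to 152737410, plus strand), an inhibitor known from endothelial and proliferating progenitor cells, was barely read. It was at 0.788, 0.706 and 0.733 CPM without a stimulus. It was at 3.47, 2.87 and 1.63 CPM with CL097. The groups were apart by 1.05 log2 units, and the values with CL097 spread widely, with 87.7% of genes tested having a smaller SD. The log2 fold change was 1.77 (SE 0.37, 95% interval 0.92 to 2.62, adjusted p = 0.00371), and it was 1.03 on the log2(CPM + 1) scale, which damps changes of low genes. Without number 2 in both conditions the call was lost (log2 fold change 1.65, adjusted p = 0.0626). Of the endothelial markers, Tek, Emcn and Plvap were under 1 CPM in all libraries, and the sum of the 6 was 271 to 289 CPM and 212 to 229 CPM, nearly all of it Pecam1, which B cells express as well. Pecam1 had a log2 fold change of -0.36 (SE 0.07) and was not called. Kdr, at 1.84 ± 1.32 and 4.71 ± 2.82 CPM, was called higher with the block alone (adjusted p = 0.00161). Cdh5 went the other way, at 1.30 ± 0.342 and 0.789 ± 0.529 CPM, and was not called with or without the block. The part of other cells in the level of Id1 was not tested. Id4, the other ID gene and no member of the set, lay at the floor of the deposited values in all 6 libraries (-5.13 log2 CPM in number 1 and -5.01 in numbers 2 and 3) and was not tested.

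Since Tcf3 and Tcf4 are also older names of WNT pathway factors, the rows of those factors were read as a check of identity. Tcf7l1 was at or under 0.542 CPM in every library. Tcf7l2 had its own row, at 3.35 ± 0.811 CPM without a stimulus and 18.0 ± 0.943 CPM with CL097 (SD, n = 3), a rise of log2 2.46 (SE 0.22, adjusted p = 3.54e-05). That row is separate from Tcf4 and changed the other way. It was looked up after the values were seen.

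Levels can be set against each other only per length of transcript, here CPM per kilobase of the longest annotated coding transcript. Before stimulation Tcf3 was the most abundant member, at 112 ± 11.01 CPM per kilobase (SD, n = 3), and its libraries lay above all of those of Tcf12, the next, at 49.0 ± 0.922. Tcf12, Id2 (43.5 ± 16.9), Id3 (43.0 ± 8.28) and Tcf4 (39.9 ± 3.53) followed with ranges that overlapped between neighbors, and Id1 came last at 0.640 ± 0.036. After CL097 the order was Id2 (96.6 ± 12.4), Tcf3 (64.0 ± 4.08), Tcf12 (49.8 ± 0.781), Tcf4 (18.5 ± 2.07), Id3 (5.48 ± 1.17) and Id1 (2.29 ± 0.811), with no overlap between neighbors. Levels per kilobase depend on which transcript is used, since Tcf4 has 46 annotated coding transcripts and Id3 has 1.

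The makeup of each family shifted with these changes. Id3 took 41.6% to 55.2% of the summed ID level per kilobase without a stimulus and 4.42% to 6.30% with CL097, and Id2 took 44.1% to 57.8% and then 90.9% to 94.4%. Among the E proteins the share of Tcf12 went from 23.0% to 25.6% up to 36.2% to 38.5%, that of Tcf4 from 17.8% to 21.9% down to 12.3% to 15.2%, and that of Tcf3 from 53.1% to 59.2% down to 46.5% to 49.3%. The log2 ratio of Id2 to Id3 within a library was 0.36, 0.30 and 1.10 without a stimulus and 4.47, 4.82 and 5.04 with CL097. The change of 4.19 came with the smallest exact permutation p the design allows (0.1, adjusted p = 0.167).

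Summed over the family, E protein transcripts were at 192, 210 and 200 CPM per kilobase without a stimulus and 132, 137 and 128 with CL097. Summed ID transcripts were at 63.2, 91.3 and 107 CPM per kilobase without a stimulus and 108, 90.5 and 115 with CL097. The ID sums overlapped between the conditions while the E protein sums did not. The ratio of the E sum to the ID sum was 3.03, 2.30 and 1.88 in unstimulated and 1.22, 1.52 and 1.12 in CL097 libraries. On the CPM scale without regard to length its mean log2 value went from 2.83 ± 0.377 to 1.73 ± 0.221 (SD, n = 3), lower in all 3 numbers, and per kilobase it went from 1.24 ± 0.348 to 0.35 ± 0.227. These sums are descriptions of transcript levels, and no test was run on them.

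**Figure D4:**
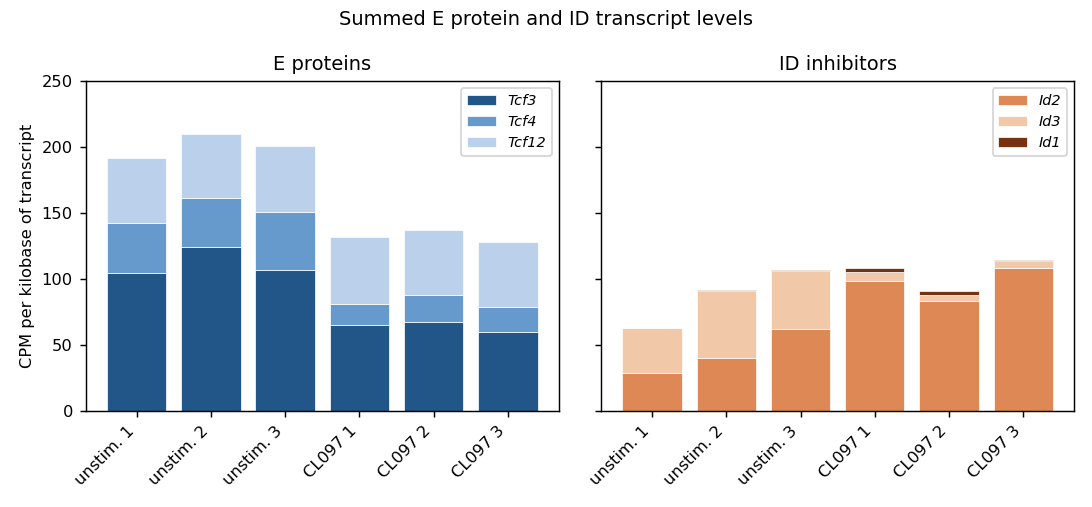
CPM per kilobase of the longest coding transcript for the E proteins (left) and the ID inhibitors (right) in each library, stacked by gene. The E protein stack is between 192 and 210 in unstimulated and between 128 and 137 in CL097 libraries, and the ID stack is made of Id2 and Id3 in similar parts before CL097 and almost wholly of Id2 after it.

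The genes around this network were taken as 4 lists. Of the B-lineage genes known as targets of E proteins, 9 of 19 tested fell and 0 rose (median log2 fold change -0.60, against 0.002 over all genes tested), so 47.4% were called where the background was 47.6%. At an unadjusted p below 0.05 in limma 0 were higher and 10 lower, and with the replicate number as a block 0 were called higher and 10 lower. Pou2af1, a coactivator of octamer-binding factors, went from 1415 ± 102 to 287 ± 24.3 CPM (log2 fold change -2.30, SE 0.09). Cd79b and Cd79a, the signaling chains of the B cell receptor, had log2 fold changes of -2.09 (SE 0.14) and -2.06 (SE 0.10). Rag1, the recombinase subunit of developing B cells, was at 30.7, 61.1 and 91.1 CPM without a stimulus and 9.99, 21.2 and 20.9 CPM with CL097 (log2 fold change -1.76, SE 0.42, adjusted p = 0.00758). Its groups did not overlap, and its unstimulated libraries differed among themselves. Ebf1 and Foxo1, factors of the early B-lineage program, were lower as well (log2 fold changes of -0.61 and -0.63, each with an SE of 0.07), while Pax5, at 160 ± 15.2 and 174 ± 10.3 CPM, was not called. Prdm1, which encodes BLIMP1, was at 17.3 ± 4.58 and 18.5 ± 4.48 CPM and was not called. Which of these genes the E proteins act on in these cells was not measured.

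E-boxes near the start sites of members and of a pair of called target genes are shown because this is the motif that E proteins are known to bind. They are printed with the motif in capitals and 12 bases on each side where the window allows. Sites are read 5′ to 3′ on the strand of the gene from the RefSeq promoter windows of build GRCm38.p6, which run from 250 bases before to 50 bases after a start site. Id2 and Tcf3 had a single E-box in the window, and for Tcf12, Cd79a and Rag1 the site farthest from the start site in their window is shown.
Id2, chr12:25096271-25096300, minus strand: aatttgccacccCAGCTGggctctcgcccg
Tcf3, chr10:80433672-80433701, minus strand: agtgggcgtggtCACTTGggggcgtggctt
Tcf12, chr9:72112042-72112069, minus strand: agatgctgccCAGCTGcgtccccgtcgc
Cd79a, chr7:24897331-24897360, plus strand: ttgtggccagccCAGGTGcagggcagttcc
Rag1, chr2:101649650-101649679, minus strand: ttcctgaagagcCAGGTGccagctggagct
The Rag1 stretch also holds a CAGCTG, left in lower case here, which began at -128. Counted from the start site, the motif in capitals began at -196 for Id2, -54 for Tcf3, -240 for Tcf12, -154 for Cd79a and -135 for Rag1. CAGCTG, the form of the E-box in the Id2 and first Tcf12 windows and also present in that of Rag1, was present in 16.3% of all 32851 promoter windows, and CAGGTG or its reverse complement CACCTG in 20.2%. The window of Id3 held no CANNTG, which 72.3% of all windows hold. A window without the motif says nothing of E protein binding at that gene. Both strands were read at once, since CANNTG is its own reverse complement. Of the 19 target genes 16 had a window. CANNTG was present for 7 of 8 that fell and for 8 of 8 that were not called. CAGCTG was present for 1 of 8 that fell and for 2 of 8 that were not called. For CAGGTG or CACCTG these counts were 3 of 8, with Cd79a and Rag1 among the 3, and 5 of 8. Neither form was more frequent among the genes that fell. A motif match is a description and not a bound site.

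**Figure D5:**
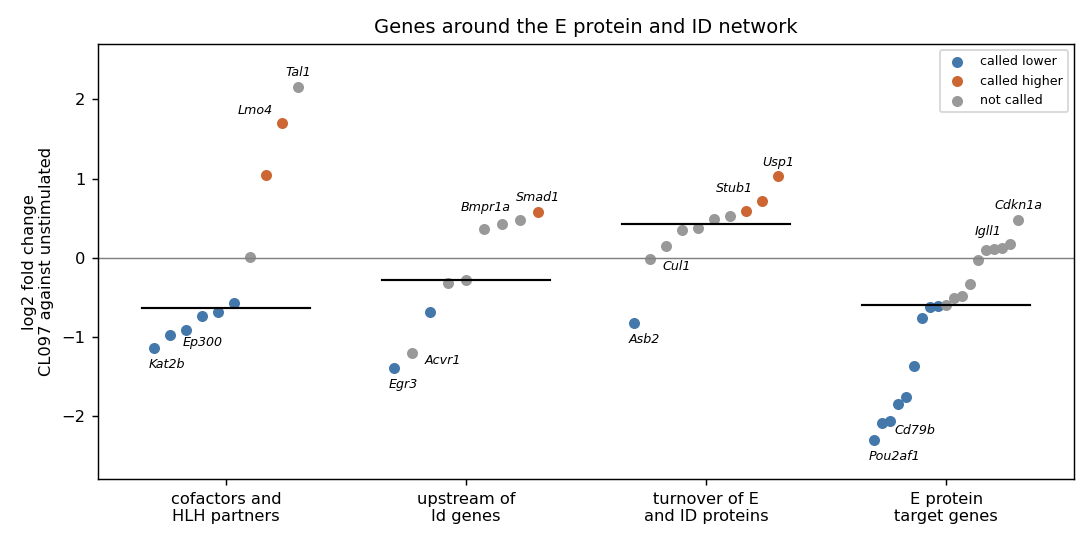
Log2 fold change of each tested gene in 4 lists around the E protein and ID network, ordered within a list, with blue for called lower, orange for called higher, gray for not called and a black bar at the list median. The medians are -0.63 for cofactors and partners, -0.29 for genes upstream of Id genes, 0.43 for turnover and -0.60 for target genes.

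Of 10 tested cofactors and helix-loop-helix partners of E proteins, 6 fell and 2 rose (median log2 fold change -0.63). The share called was 80.0%. Over all genes tested 47.6% were called, 23.6% lower and 24.0% higher. Ep300, a histone acetyltransferase that E proteins recruit, went from 345 ± 25.4 to 175 ± 11.6 CPM (log2 fold change -0.98, SE 0.08), and the acetyltransferase gene Kat2b fell by 1.14 (SE 0.40) on the log2 scale. The rises were those of the LIM-only factors Lmo4, from 68.3 ± 4.85 to 222 ± 7.32 CPM (log2 fold change 1.70, SE 0.08), and Lmo2, a bridge between E protein complexes and LDB1, by log2 1.04 (SE 0.12). Ldb1 itself, their binding partner, fell by 0.91 (SE 0.10). Tal1, the erythroid partner of E proteins, followed the erythroid markers: it was at 0.384, 7.21 and 6.68 CPM without a stimulus and 1.62, 27.4 and 36.6 CPM with CL097. It was not called (adjusted p = 0.227), and it was called higher with the replicate number as a block (adjusted p = 4.91e-05). Erythroid markers summed to 33.9 to 962 CPM and 51.2 to 2136 CPM in the 2 conditions, with 0 of 6 called in limma (0 at an unadjusted p below 0.05) and 4 called higher with the block. Their part in the level of Tal1 was not tested.

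Upstream of the Id genes, BMP receptors signal through SMAD1 and SMAD5, and EGR factors carry the antigen receptor signal to Id3. Of 9 tested genes of this list 2 fell, 1 rose and 6 were not called. The share called was 33.3%, against 47.6% of all genes tested, and the median log2 fold change was -0.29. Egr3 went from 81.8 ± 5.91 to 31.3 ± 4.84 CPM (log2 fold change -1.40, SE 0.13) and Egr2 from 61.0 ± 4.39 to 38.1 ± 2.15 CPM (log2 fold change -0.68, SE 0.09), whereas Egr1 was at 159 ± 40.5 and 126 ± 20.3 CPM and was not called. Smad1 rose by log2 0.57 (SE 0.16), from 6.33 ± 0.474 CPM. The BMP receptor genes Bmpr1a, Bmpr2 and Acvr1 were all at means under 4 CPM, and none of them was called. Of these, Acvr1 was called lower with the block (adjusted p = 0.0422).

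Of 10 genes that act on the stability of E and ID proteins, 3 rose, 1 fell and 6 were not called. The share called was 40.0%, against 47.6% of all genes tested, and the median log2 fold change was 0.43. Usp1, a deubiquitinase that protects ID proteins from degradation, rose from 155 ± 15.0 to 315 ± 9.40 CPM (log2 fold change 1.03, SE 0.08). Stub1, which encodes the ubiquitin ligase CHIP, rose by log2 0.71 (SE 0.13), and Cops5, a COP9 signalosome subunit, by 0.59 (SE 0.10). Asb2, a ubiquitin ligase subunit that takes part in E2A turnover, was at 5.59 ± 0.875 CPM and fell by 0.82 (SE 0.24) on the log2 scale. Skp2, the F-box protein linked to E2A degradation, was at 6.49 ± 1.47 and 9.22 ± 0.928 CPM and was not called (adjusted p = 0.06), and it was called higher with the block (adjusted p = 0.0238).

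The genes nearest to each member in profile were those with the smallest Euclidean distance between log2 CPM values centered on their own mean, over the 6 libraries and among 7899 genes whose mean was 10 CPM or more. For Id3 they were Susd3 (distance 0.406), Add3 (0.5) and Calhm2 (0.511), with log2 fold changes of -2.81, -2.73 and -3.07. For Tcf4 they were H3f3a (0.114), Zfp260 (0.135) and Pnrc2 (0.144), where reads of H3f3a are uncertain because histone H3 genes resemble each other. For Tcf3 they were Taok2 (0.0824), Blk (0.1), a B cell Src family kinase, and Dgkz (0.102), and for Tcf12 Chd4 (0.0344), Zbtb7a (0.0553) and Ibtk (0.0606). Genes near Id2 were more distant, Ikbke (0.355), Acer3 (0.390) and Met (0.412), as were those near Id1, Pard6b (0.383) and Magohb (0.497). The distances are descriptions over 6 libraries that share 2 conditions.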

How the data were processed

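RNA-seq libraries of 3 unstimulated and 3 CL097-treated B cell cultures were analyzed. By the submitters' processing notes, reads were checked with FastQC (0.11.7), trimmed with Trim Galore (0.6.5), aligned to mm10 with STAR (2.6.1a) and counted with featureCounts of Subread (2.0.1). The authors then used voom and quantile normalization in limma, and the deposited values are log2 CPM, 1 table per library. The library kit was stranded, and which annotation and strand setting were used for counting was not given in the sources used here. No other annotated gene overlapped an exon of a member. The study's methods state a target depth, but the reads reached per library are unknown here, read counts were not recovered and no counting interval is given.

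The 11844 genes that reached 0.5 CPM (log2 of -1) in 3 or more libraries were tested. The deposited log2 values were fitted in limma 3.58.1 (R 4.3.3) with the group as the only term, moderated variances and a mean-variance trend. P-values are two-sided, with Benjamini-Hochberg adjustment over all genes tested. The fit was tested on simulated data with independent noise in each library and no effect shared within a replicate number. That test does not cover such shared effects, and its outcome is not reported here. Members and lists were chosen with earlier results of these data known. The genes to be named were the members, Id4, up to 2 called rises and 2 called falls of largest size per list, leading markers, and the 3 nearest profiles per member without clone and model names. Others in the text were chosen after their values were seen, and some genes that the rule names are not reported here.

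Whether a number stands for 1 mouse is not stated in the labels, so p-values measure the spread between these libraries, which may be technical. Deviations from group means correlated at 0.568, 0.326 and 0.458 between libraries of the same number, all over the limit of 0.1, and at -0.485 to 0.209 between libraries of different numbers, of which 2 pairs were also over it. By the limit the numbers count as pairs. The reported SEs, intervals and p-values in limma nevertheless come from the unpaired fit, except where the block is named. The fit with the number as a block was an alternative. Between 2655 and 3108 of 17935 genes had exactly equal values in both libraries of a number, against 347 to 396 in other pairs of libraries. Whether this equality comes from how the values were made was not tested, and it does not show that a number is 1 mouse. Other alternatives were the filter, log2(CPM + 1), median and cyclic loess scaling, the variance model and libraries left out. Ratios within a library were compared by unpaired exact permutation tests. Coordinates are those of GENCODE M21 (GRCm38), counted from 1. Promoter windows are from RefSeq (GRCm38.p6). No window of Id1 or Tcf4 was used.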

Additional observations from a re-analysis of the deposited data

How the results depend on the processing

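The direction and the call of Tcf3, Tcf4, Id2 and Id3 were the same under all 17 alternatives, and Tcf12 was not called under any of them. With the replicate number as a block the log2 fold changes were the same, with adjusted p of 3.77e-05 for Tcf3, 2.08e-05 for Tcf4, 1.83e-05 for Id3, 0.000573 for Id2, 0.00249 for Id1 and 0.728 for Tcf12, and no call of a member changed. Id1 lost its call without number 2 in both conditions (log2 fold change 1.65, adjusted p = 0.0626), a fit on 4 libraries, and over the fits with 1 number left out of both conditions its log2 fold change ran from 1.59 to 2.08 (adjusted p from 0.00839 to 0.0626), and with 1 library left out from 1.54 to 2.09. Id1 was not tested with the filter at 2 CPM. With 1 library left out, Tcf3 ran from -0.85 to -0.72, Tcf4 from -1.17 to -1.02, Id2 from 0.95 to 1.51 and Id3 from -3.14 to -2.85. Counts of called genes, over all genes and within the 4 lists, stayed within 1.5 times the reported count. The ratio of summed E to ID transcripts changed by -1.10 log2 units on the CPM scale and under cyclic loess and by -0.89 per kilobase, while median scaling cannot change a ratio within a library. The depth reached is unknown here, so the precision of Id1, which was under 1 CPM without a stimulus, cannot be set from counts.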
